A study of Homo sapiens with 4 samples.

Results

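The ETS family comprises transcription factors that share a winged helix DNA-binding domain, which reads sites built on the letters GGAA. Its 10 members described here are ETV1, ETV2, ETV3, ETV4, ETV5, ETV6, ETS1, ETS2, ELK1 and GABPA, found by gene symbol among the 58735 genes of the count table. They were chosen by name with earlier results of these same libraries known, so their differences between libraries are given as a description and carry no test. All 10 reached at least 1 CPM (reads per 1000000 reads of the scaled library size) in at least 1 library, as did 16262 genes in all.

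RNA was sequenced from HEK293T cells, a human embryonic kidney line that carries the SV40 large T antigen. In every group PBRM1, the gene of a PBAF chromatin remodeller subunit, had been disrupted with CRISPR, and the cells had then been transfected for 48 h with a GFP-PBRM1 plasmid. The plasmid carried WT PBRM1 or the mutant P1048R, T1202K or C1233W, named for changes in the BAH (bromo-adjacent homology) domains. There was 1 library per construct, 4 in all, and no source used here says whether the edited cells were a clone or a pool. No difference below has a replicate check, and cells without a plasmid were not analysed here.

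Several ETS factors act at the end of growth factor signalling. ETV1, ETV4 and ETV5 form the PEA3 group, which is switched on by FGF and ERK signalling and held down by the repressor CIC. ELK1 binds beside SRF at serum response genes, GABPA pairs with GABPB1 at promoters of housekeeping and mitochondrial genes, and ETV2 is the pioneer factor that starts the endothelial and blood lineages in the embryo. ETV3 and ETV6 are mainly repressors.

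The libraries held between 10246250 and 11205322 counted reads, of which 3 reads correspond to 0.251 to 0.321 CPM. PBRM1 itself differed between libraries, at 22768 CPM in WT, 8805 in P1048R, 15262 in T1202K and 60509 in C1233W. Of 6 genes known in HEK293 lines, such as PAX2, NEFM and VIM, all were measured, with a summed level of 810.4 to 1213 CPM. All 5 blood markers stayed under the filter, with a summed level of 0.706 to 0.967 CPM, while EPCAM, SFN, LUM and PDGFRA were the 4 measured of 10 fibroblast and keratinocyte markers. Summed over each list, keratinocyte markers were at 5.46 CPM in WT, 5.44 in P1048R, 6.53 in T1202K and 9.67 in C1233W, and fibroblast markers at 8.13, 4.94, 7.06 and 9.77, both highest in C1233W; their part in the C1233W results was not tested. Among endothelial genes, CDH5, PECAM1, TEK and TIE1 had at most 3 reads in any library, whereas KDR had 8 to 38 reads. The VEGF receptor genes FLT1 and FLT4 were at 41.5 to 75.5 and 44.8 to 63.4 CPM. Brackets after a level hold its exact 95% Poisson interval, and those after a log2 ratio hold a 95% interval from the Clopper-Pearson limits on the share of reads. Both cover counting error only, and neither contains variation between cultures.

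ETV2 showed the widest range of the 10 genes. Its promoter is shown first because its level set the WT library apart. ETV2 (ENSG00000105672) lies on the plus strand of chromosome 19, from 35641745 to 35644871 (GRCh38). The 250 bases before its start in RefSeq (GRCh38.p14, chr19:35641495-35641744) read as follows, with capitals marking a cAMP response element (TGACGTCA, bound by CREB and ATF proteins) and an ETS core (CCGGAA).
ETV2: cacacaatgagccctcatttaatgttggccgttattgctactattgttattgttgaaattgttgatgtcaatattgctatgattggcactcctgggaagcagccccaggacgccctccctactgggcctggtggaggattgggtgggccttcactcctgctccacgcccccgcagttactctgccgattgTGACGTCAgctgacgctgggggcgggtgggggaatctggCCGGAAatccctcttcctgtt

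The cAMP response element begins at position -60 from the start and the ETS core at -21. Both strands were searched for each motif in windows reaching from 250 bases before to 50 after each start. CCGGAA was the only ETS form searched, so other GGAA letters in the printed sequences are unmarked. TGACGTCA was present in 1.85% of the 35116 RefSeq windows of the same length, and CCGGAA in 17.2%. These letters were chosen after the sequences had been seen, and a match is no evidence of binding. RefSeq windows were matched for 7 of the 10 genes, with ETV4, ETV5 and ETS1 unmatched, and ETV2 was the only matched gene with TGACGTCA.

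ETV2 had 3 reads in WT, 62 in P1048R, 24 in T1202K and 24 in C1233W. Its level was thus 0.321 CPM in WT (0.0662–0.938), 5.19 in P1048R (3.98–6.66), 2.12 in T1202K (1.36–3.15) and 2.32 in C1233W (1.49–3.45). P1048R stood highest, T1202K and C1233W lay together between, and WT was lowest, with an interval that met none of the others. In bulk RNA, fewer cells with a transcript and less of it per cell cannot be told apart. PBRM1 was lowest in P1048R, where ETV2 was highest, and its level in WT lay between those of T1202K and C1233W; its part in the ETV2 levels was not tested.

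Against WT, the log2 ratio of ETV2 was 3.81 in P1048R (2.40–6.33), 2.53 in T1202K (1.00–5.10) and 2.66 in C1233W (1.14–5.23). The wide intervals come from the 3 WT reads. Between mutants, ETV2 was lower than in P1048R by -1.27 in T1202K (-2.04 to -0.59) and by -1.14 in C1233W (-1.91 to -0.46). T1202K and C1233W did not differ beyond counting error, at 0.13 (-0.75 to 1.01).

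Genes were called where 2 libraries differed by 2-fold or more, that is by a log2 ratio of 1 or over in size, with a counting interval that left out 0, which is termed the size rule below. ETV2 passed in 5 of the 6 pairs of libraries. It was lower in WT than in each mutant, a pattern held by 1.25% of the genes tested, and higher in P1048R than in each other library, a pattern held by 0.0799%. Since the genes were chosen with such values known, nothing is read from these shares. ETV2 transcripts are rich in GC, at 66.3% against a median of 48.0% over the genes tested. The part of GC content in the ETV2 levels was not tested. Over the 8 alternative settings, 1 of which removed a trend on GC and length, the P1048R ratio lay between 3.32 and 4.03. ETV2 kept its calls in all of them, but those that changed only the filter could not alter its ratios. It met the minimum of 5 CPM in P1048R alone, at 5.19.

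The genes beside ETV2 did not share its pattern. RBM42, which encodes an RNA-binding protein and ends 4058 bases before ETV2, was at 109 CPM in WT, 105 in P1048R, 123 in T1202K and 92.3 in C1233W. COX6B1, a subunit of cytochrome c oxidase that starts 3351 bases after ETV2 on the same strand, was at 75.5 CPM in WT, 48.8 in P1048R, 62.3 in T1202K and 52.9 in C1233W. COX6B1 was thus highest in the library where ETV2 was lowest, with a log2 ratio of -0.63 in P1048R (-0.79 to -0.47), and no pair passed the rule for either neighbour.

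**Figure D1:**
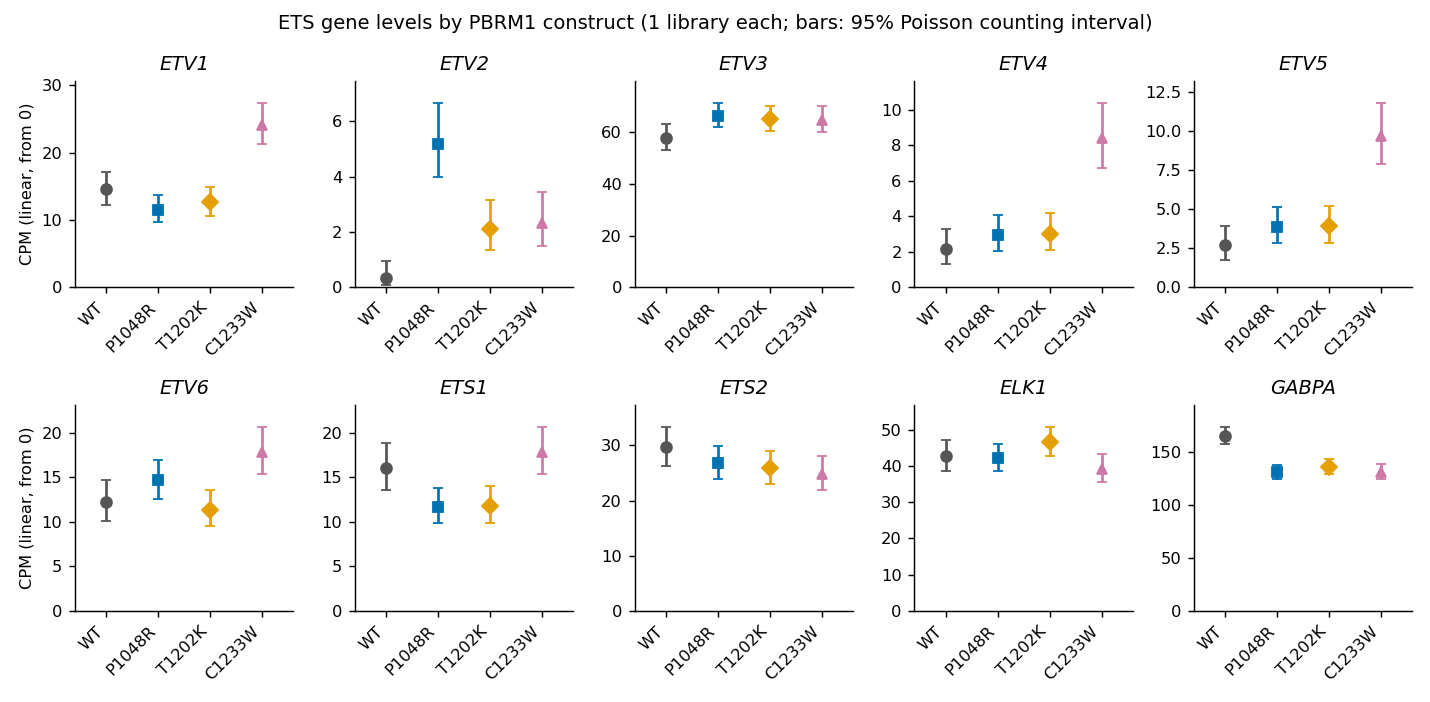
Level of each of the 10 ETS genes in CPM (linear axes from 0, each gene on its own scale) in the 4 libraries, with exact 95% Poisson counting intervals and 1 library per construct. ETV2 runs from 0.321 CPM in WT to 5.19 in P1048R, and ETV4 and ETV5 stand highest in C1233W, at 8.42 and 9.67 CPM.

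The PEA3 group had its highest levels in C1233W. ETV4 (ENSG00000175832), at 43527844 to 43579620 of chromosome 17 (minus strand), had 20 reads in WT, 35 in P1048R, 34 in T1202K and 87 in C1233W. These were 2.14 CPM (1.31–3.30), 2.93 (2.04–4.08), 3.00 (2.08–4.20) and 8.42 (6.74–10.4). C1233W stood above the other 3 libraries, whose intervals overlapped one another.

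ETV5 (ENSG00000244405), at 186046308 to 186110318 of chromosome 3 (minus strand), had 25 reads in WT, 46 in P1048R, 44 in T1202K and 100 in C1233W. Its level was 2.67 CPM (1.73–3.95) in WT, 3.85 (2.82–5.14) in P1048R, 3.89 (2.82–5.22) in T1202K and 9.67 (7.87–11.8) in C1233W. The order of the libraries was the same as for ETV4, again with C1233W alone above the rest.

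ETV1 (ENSG00000006468), at 13891228 to 13991425 of chromosome 7 (minus strand), had more reads, at 136, 138, 143 and 250. Its level was 14.6 CPM (12.2–17.2) in WT, 11.6 (9.71–13.7) in P1048R, 12.6 (10.6–14.9) in T1202K and 24.2 (21.3–27.4) in C1233W. ETV1 was highest in C1233W too, but its other levels did not share the order of ETV4 and ETV5, since WT was next.

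In log2 ratio to WT, C1233W was higher by 1.95 for ETV4 (1.26–2.76), by 1.83 for ETV5 (1.21–2.55) and by 0.73 for ETV1 (0.43–1.04), the last under 2-fold. Against P1048R the ratios were 1.51 for ETV4 (0.94–2.13), 1.32 for ETV5 (0.81–1.86) and 1.06 for ETV1 (0.76–1.38). Against T1202K they were 1.47 (0.90–2.10), 1.31 (0.79–1.86) and, for ETV1, 0.94 (0.64–1.24). ETV4 and ETV5 thus stood at least 2-fold above each other library, as did 0.584% of the genes tested, and ETV1 lay just inside the 2-fold line in 1 pair and just outside it in another. ETV1 was at 0.97 against P1048R on total-count scaling, where it no longer passed, and at 1.02 against T1202K on upper quartile scaling, where it did.

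P1048R and T1202K gave near-equal levels of these genes. The log2 ratio of T1202K to P1048R was 0.03 for ETV4 (-0.69 to 0.76), 0.01 for ETV5 (-0.62 to 0.64) and 0.13 for ETV1 (-0.22 to 0.48), with the signs of the values for ETV4 and ETV5 turning under other scalings. Against WT, both mutants lay above for ETV4 (0.44 and 0.47) and ETV5 (0.51 and 0.53) and below for ETV1 (-0.33 and -0.20), with every interval reaching 0.

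Per kilobase of annotated exon, the PEA3 group made up 3.96% of the summed level of the 10 genes in WT, 4.38% in P1048R, 4.60% in T1202K and 10.3% in C1233W. The sum of all 10 hardly moved, at 64.8, 61.1, 61.2 and 63.5 RPKM (CPM per kilobase of exon) in the same order. C1233W was also the library with the highest PBRM1 level, and its part in these differences was not tested.

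Exons of ETV4 share 68 bases with DHX8, an RNA helicase gene on the opposite strand, and exons of ETV5 share 164 bases with DGKG on the same strand. DHX8 was at 114 CPM in WT, 102 in P1048R, 112 in T1202K and 96.6 in C1233W, so it did not share the C1233W pattern. DGKG had at most 2 reads in any library.

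Of the 6 RefSeq start windows of ETV1, 1 holds the letters TGAATGGA, which with TGAATGAA are known sites of the repressor CIC. It is shown because CIC is the known repressor of this group. The 250 bases before that start (minus strand, GRCh38.p14, chr7:13991426-13991675) read as follows, with the ETS core CCGGAA and the CIC letters in capitals.
ETV1: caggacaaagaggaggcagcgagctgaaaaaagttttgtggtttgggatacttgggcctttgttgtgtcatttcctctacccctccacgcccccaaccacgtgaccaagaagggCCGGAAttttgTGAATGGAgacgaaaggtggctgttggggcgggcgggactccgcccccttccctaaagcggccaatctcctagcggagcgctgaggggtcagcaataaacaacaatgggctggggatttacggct

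The ETS core begins at position -136 and the CIC letters at -125. Either CIC form, on either strand, was present in 2.63% of all RefSeq windows. CIC mRNA was at 56.2 CPM in WT, 72.04 in P1048R, 66.7 in T1202K and 71.0 in C1233W. It was somewhat above WT in each mutant and at a like level in C1233W and P1048R, with a log2 ratio of -0.02 between them (-0.16 to 0.12). COP1, a ubiquitin ligase that marks PEA3 proteins for breakdown, was at 33.7, 45.3, 37.7 and 38.6 CPM and passed the rule in no pair.

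**Figure D2:**
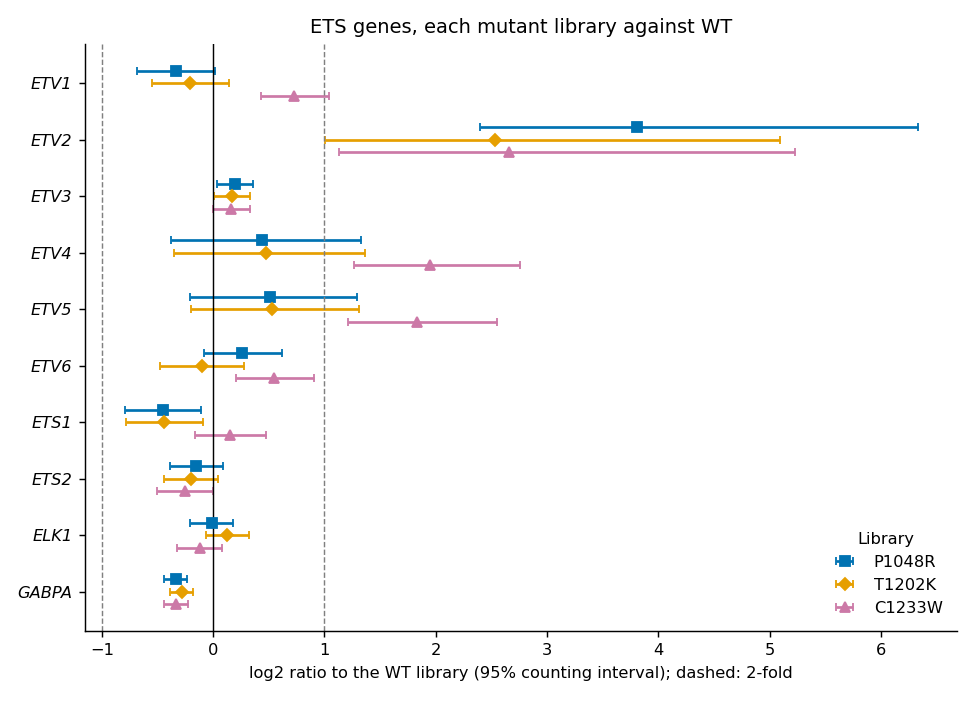
Log2 ratio of each mutant library to the WT library for the 10 ETS genes, with 95% counting intervals and dashed lines at 2-fold. ETV2 lies beyond 2-fold in all 3 mutants and ETV4 and ETV5 in C1233W, while the other 7 genes lie within 2-fold.

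The ERK feedback list held 18 genes known to follow ERK or CIC and PEA3 factors. In C1233W its median log2 ratio was 0.48 against WT, 0.43 against P1048R and 0.32 against T1202K, beside all-gene medians of -0.01, 0.00 and -0.02. The number of members passing the rule was 2 higher against WT, 3 against P1048R and 2 against T1202K, and none was lower. The background was 4.19%, 3.73% and 3.05% of all genes higher. Lower genes were few in these pairs, at 197, 131 and 79 of the 16262 tested. In P1048R and T1202K against WT no member passed, beside 7.5% and 5.15% of all genes. The medians were 0.11 and -0.02, and their signs changed with the scaling. On upper quartile scaling the feedback gene DUSP5 passed as lower in P1048R, at -1.01.

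SPRY4, a Sprouty inhibitor of receptor tyrosine kinase signalling, was the member with the clearest C1233W pattern. It had 7 reads in WT, 12 in P1048R, 15 in T1202K and 31 in C1233W, with log2 ratios of C1233W of 1.92 to WT (0.79–3.43), 1.54 to P1048R (0.57–2.67) and 1.15 to T1202K (0.25–2.17). It passed the rule against each other library, as ETV4 and ETV5 did.

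DUSP6, the ERK phosphatase, was at 3.21 CPM in WT, 2.85 in P1048R, 2.83 in T1202K and 5.997 in C1233W. It passed against P1048R (1.06, 0.45 to 1.72) and T1202K (1.07, 0.45 to 1.75) and lay under 2-fold against WT (0.89, 0.25 to 1.58). On total-count scaling it passed against WT, at 1.02, and no longer against P1048R, at 0.97. FOSL1, an AP-1 factor, passed against P1048R alone (1.23, 0.26 to 2.34), and SHC3, an adaptor with 4 reads in WT and 15 in C1233W, against WT alone (1.64, 0.11 to 3.81).

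Other feedback genes lay within 2-fold or had intervals that reached 0. The cyclin gene CCND1 was below WT in all 3 mutants, and in C1233W at -0.48. Sprouty gene SPRY2 stood at -0.01 in C1233W against WT, and SPRED2, an inhibitor of RAF activation, at 0.67. Promoter windows were matched for 13 of the 18 genes. The CIC letters were found in those of EPHA2, SHC4 and SPRED3, not in those of SPRY4 or DUSP6.

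**Figure D3:**
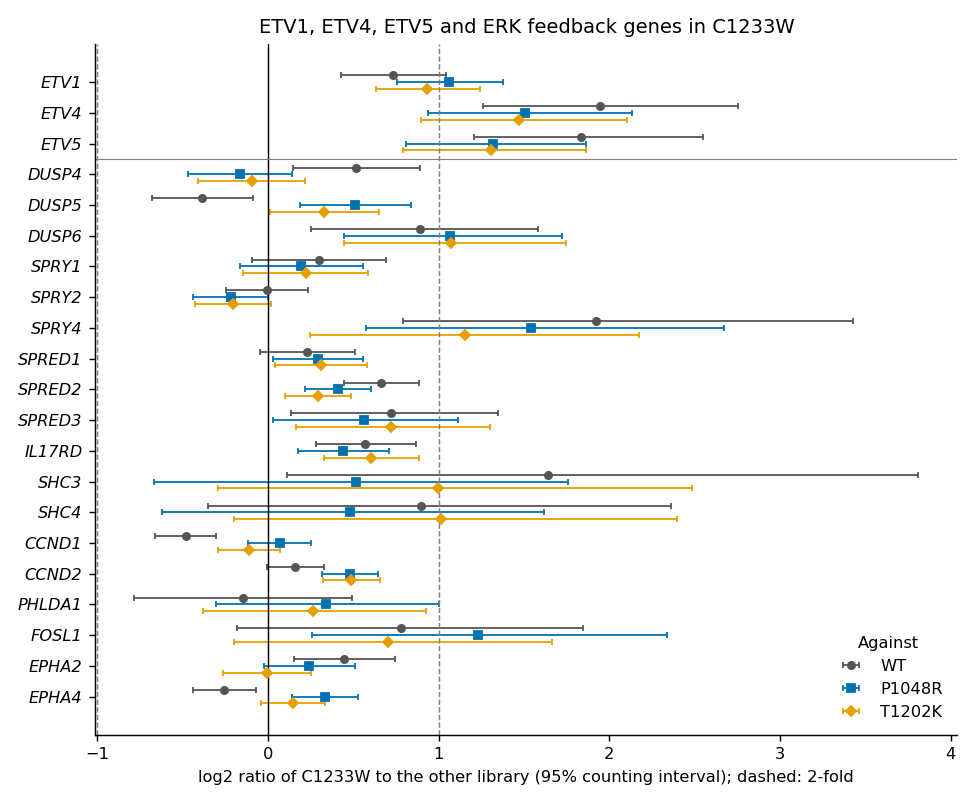
Log2 ratio of the C1233W library to each other library for ETV1, ETV4 and ETV5 (above the line) and the 18 ERK feedback genes, with 95% counting intervals and dashed lines at 2-fold. ETV4, ETV5 and SPRY4 lie beyond 2-fold against all 3, whereas genes such as SPRY2 and CCND1 lie near or below 0.

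ELK1 (ENSG00000126767), at 47635521 to 47650604 of chromosome X (minus strand), was nearly level. It was at 42.7 CPM in WT (38.6–47.1), 42.3 in P1048R (38.7–46.2), 46.6 in T1202K (42.7–50.8) and 39.3 in C1233W (35.5–43.3). Its highest and lowest libraries, T1202K and C1233W, differed by a log2 ratio of -0.25 (-0.44 to -0.06), and its ratios to WT, of -0.01, 0.13 and -0.12, changed sign with the scaling. The ELK1 partner SRF was likewise close, at 64.2, 69.2, 69.8 and 57.3 CPM in WT, P1048R, T1202K and C1233W.

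Serum response genes with sites for ELK1 and SRF were less even. Of 14 listed, 13 were measured, and in C1233W against WT 4 were higher and none lower, beside 4.19% and 1.21% of all genes, with a median of 0.60. With a minimum of 5 CPM, 8 were left and 2 of them were higher, beside 282 of 12193 genes, with a median of 0.51. FOS was among those higher but reached 5 CPM in C1233W alone, at 7.45, so this filter gives no separate check of it. Over the 13 genes the median was 0.35 once the trend on GC and length had been taken out. The zinc finger genes EGR2 and EGR3 were higher by 2.04 (0.60–4.18) and 1.31 (0.07–2.85), on 4 and 7 reads in WT. EGR3 entered the list of measured genes through C1233W alone, at 1.93 CPM. The nuclear receptor NR4A1 was higher by 1.48 (1.04–1.96) and the AP-1 gene FOS by 1.20 (0.59–1.87).

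In the other mutants the list parted. P1048R had NR4A1 higher, at 1.08 (0.63–1.56), and FOSB lower, at -1.26 (-2.43 to -0.23), beside 4.48% of all genes higher and 3.02% lower, with a median of -0.17 that turned to 0.05 on total counts. EGR2 in P1048R passed on total counts, at 1.66, and FOS passed as lower on upper quartile scaling, at -1.12. NR4A1 in P1048R fell under 2-fold on upper quartile scaling (0.96) and with the GC and length trend removed (0.99). In T1202K FOSB was lower by -1.44 (-2.71 to -0.35) and no member was higher, beside 2.21% of all genes lower and 2.95% higher. In C1233W FOSB stood at 0.37 to WT (-0.44 to 1.21).

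GABPA (ENSG00000154727), on the plus strand of chromosome 21 from 25734570 to 25772460, was the most abundant of the 10 genes per kilobase of exon in every library. It was at 165 CPM in WT (157–174), 131 in P1048R (125–138), 136 in T1202K (129–143) and 131 in C1233W (125–139). WT stood above the mutants, whose intervals overlapped. The log2 ratios to WT were -0.34 (-0.44 to -0.24), -0.28 (-0.38 to -0.18) and -0.33 (-0.44 to -0.23), all under 2-fold. They stayed below 0 under each alternative that changed the scaling, the added reads or the GC and length trend.

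GABPA shares 413 exon bases with ATP5PF, an ATP synthase subunit gene on the opposite strand that starts beside it. The libraries came from a stranded kit, but the strand setting of the counting was not stated, so reads in the shared bases cannot be assigned. ATP5PF was at 118 CPM in WT, 106 in P1048R, 107 in T1202K and 93.6 in C1233W, also highest in WT. GABPB1, the activating partner, was lowest in WT, at 26.2 CPM in WT, 42.8 in P1048R, 35.1 in T1202K and 31.9 in C1233W. Its log2 ratio to WT was 0.71 in P1048R (0.48–0.93), 0.42 in T1202K (0.19–0.66) and 0.28 in C1233W (0.04–0.53).

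None of the 16 mitochondrial genes listed as GABPA targets passed the rule in any pair, beside 1.24% to 7.5% of all genes. Their median to WT was -0.31 in P1048R, -0.15 in T1202K and -0.25 in C1233W, beside all-gene medians of -0.04, -0.01 and -0.01. The T1202K median turned to 0.02 on total counts, where that of all genes was 0.17. TFAM, which packages mitochondrial DNA, was at 295 CPM in WT, 238 in P1048R, 239 in T1202K and 227 in C1233W. TFAM, like GABPA, was thus highest in WT, by less than 2-fold. POLRMT, TFB1M and SURF1 were instead lowest in WT, with POLRMT at 46.5 CPM against 59.6, 71.7 and 57.9 in the same order of mutants. By sign, 12 of the 16 lay below WT in P1048R, 11 in T1202K and 13 in C1233W, and 4, 5 and 3 above.

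ETS1 and ETS2 are the founding pair of the family, both activated by ERK phosphorylation. ETS1 (ENSG00000134954), at 128458761 to 128587558 of chromosome 11 (minus strand), was at 16.0 CPM in WT (13.6–18.8), 11.7 in P1048R (9.86–13.8), 11.8 in T1202K (9.91–14.0) and 17.9 in C1233W (15.4–20.7). WT and C1233W formed the higher pair and P1048R and T1202K the lower, with a log2 ratio of C1233W to P1048R of 0.61 (0.29–0.94). ETS2 (ENSG00000157557), on the plus strand of chromosome 21 from 38805307 to 38824955, was at 29.6, 26.7, 25.9 and 24.9 CPM in WT, P1048R, T1202K and C1233W. Neighbours in that order did not differ beyond counting error, no pair of either gene passed the rule, and the ETS2 ratio of P1048R to WT, -0.15, was 0.07 on total counts.

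ETV6 and ETV3, the repressors, also stayed within 2-fold. ETV6 (ENSG00000139083), on the plus strand of chromosome 12 from 11649854 to 11895402, was at 12.2 CPM in WT (10.1–14.7), 14.7 in P1048R (12.6–17.0), 11.4 in T1202K (9.51–13.5) and 17.9 in C1233W (15.4–20.7). C1233W was highest, by a log2 ratio of 0.65 to T1202K (0.32–0.99) and 0.55 to WT (0.21–0.90), while T1202K, at -0.10 to WT, stood at 0.08 on total counts. ETV3 (ENSG00000117036), at 157121191 to 157138474 of chromosome 1 (minus strand), was at 58.0, 66.5, 65.3 and 64.9 CPM, with the 3 mutants close together and ratios to WT of 0.20, 0.17 and 0.16.

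Counted over the 10 genes, ETV2 alone passed in P1048R against WT, where 7.5% of all genes did (4.48% higher and 3.02% lower). ETV2 was again alone in T1202K against WT, where 5.15% of all genes passed (2.95% higher and 2.21% lower). In C1233W against WT 3 passed, which were ETV2, ETV4 and ETV5, all higher, beside 5.4% of all genes (4.19% higher and 1.21% lower). Between mutants, ETV2 alone passed in T1202K against P1048R, as 1 gene that was lower, beside 1.24% of all genes (0.664% lower). In C1233W against P1048R 4 passed, with ETV1, ETV4 and ETV5 higher and ETV2 lower, beside 4.54% (3.73% higher and 0.806% lower). In C1233W against T1202K 2 passed, which were ETV4 and ETV5, beside 3.54% (3.05% higher). The median log2 ratio of the 10 genes to WT was 0.09 in P1048R, 0.01 in T1202K and 0.36 in C1233W, beside all-gene medians of -0.04, -0.01 and -0.01. On upper quartile scaling the P1048R and T1202K medians turned to -0.03 and -0.14, with all-gene medians of -0.16 in both.

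ETV1, ETV2, ETV4 and ETV5, the genes that passed in any pair, ranked below the 4 most abundant in each library. In every library the order per kilobase began with GABPA, ELK1, ETV3 and ETS2, which ranged over 24.1 to 30.5, 11.6 to 13.7, 8.65 to 9.92 and 5.41 to 6.45 RPKM. The median gene tested was at 4.20 RPKM in WT and 4.48 in T1202K. ETV2 was last of the 10 in WT, at 0.149 RPKM, and the fifth in P1048R, at 2.41 RPKM. ETV4 ranged from 0.593 to 2.33 RPKM and ETV5 from 0.461 to 1.67, and both remained below ETS1, ETV6 and ETV1 in C1233W.

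**Figure D4:**
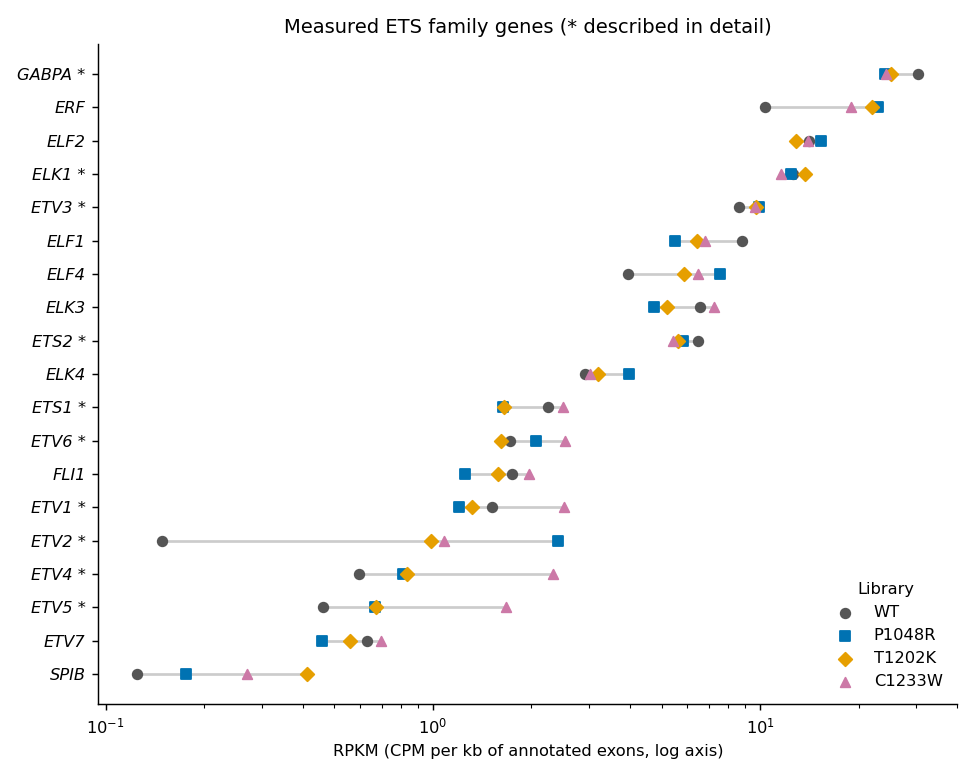
Level per kilobase of annotated exon (RPKM, log axis) of the 19 ETS family genes measured, with 1 point per library and the genes described in detail starred. GABPA is highest at 24.1 to 30.5 RPKM, and ETV2, from 0.149 to 2.41 RPKM, has the widest spread.

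Of the other 18 ETS genes of the human genome, 9 reached 1 CPM and 9 did not, among them the blood factor SPI1 and the epithelial factors ELF3, ELF5 and EHF. ERF, a repressor of the ETV3 type that ERK signalling sends out of the nucleus, was at 34.0 CPM in WT (30.4–38.0), 75.6 in P1048R (70.7–80.7), 72.6 in T1202K (67.7–77.7) and 62.6 in C1233W (57.9–67.6). WT stood lowest, as for ETV2, but on far more reads, 318 against 902, 822 and 647.

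The log2 ratio of ERF to WT was 1.15 in P1048R (0.96–1.34), 1.09 in T1202K (0.90–1.28) and 0.88 in C1233W (0.68–1.08), so it passed in P1048R and T1202K. With the GC and length trend removed it was under 2-fold, at 0.96 in P1048R and 0.75 in T1202K. Upper quartile scaling left T1202K at 0.94, and total counts brought C1233W to 1.01, past the line.

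SPIB, a lymphoid factor, passed in T1202K against WT (1.62, 0.27 to 3.49) on 20 reads against 5. It also passed against P1048R (1.19, 0.03 to 2.55), a call lost under 4 alternatives with values of 1.10 to 1.15. Of the genes that passed in no pair, those with the highest median RPKM over the 4 libraries were ELF2, ELF1 and ELF4. ELF2 was at 121, 131, 111 and 120 CPM in WT, P1048R, T1202K and C1233W. ELF1 was at 38.2, 23.9, 27.8 and 29.5 CPM in the same order, highest in WT. ELF4, at 17.0, 32.5, 25.3 and 27.9 CPM, was lowest in WT, with a log2 ratio in P1048R of 0.93 (0.66 to 1.21) that reached 1.16 on total counts and then passed.

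Endothelial and blood progenitor genes known to lie downstream of ETV2 differed in direction among themselves. Of 27 listed, 13 were measured. In P1048R, where ETV2 was highest, 1 was higher and 2 were lower than in WT, beside 4.48% and 3.02% of all genes. The median was -0.34, beside an all-gene median of -0.04. On total counts 12 were measured, with 2 higher and 1 lower, beside 1253 higher and 231 lower of 16206 genes. There the median was -0.01 and that of all genes 0.19. In T1202K against WT none passed, beside 2.95% of all genes higher and 2.21% lower. On total counts 1 was higher in T1202K, beside 806 of 16206 genes. In C1233W 1 was higher, beside 4.19% of all genes, with a median of 0.24 and an all-gene median of -0.01.

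The VEGF receptor gene KDR, a direct ETV2 target in embryos, had 23 reads in WT, 8 in P1048R, 16 in T1202K and 38 in C1233W. It was lower by -1.82 in P1048R (-3.25 to -0.67) and stood at 0.57 in C1233W (-0.21 to 1.39). TAL1, a blood progenitor factor, was lower in P1048R by -1.94 (-4.59 to -0.13), on 3 reads against 10 in WT. CLDN5, an endothelial tight junction gene, was higher in P1048R by 1.501 (0.25–3.17) and in C1233W by 1.83 (0.59–3.49) on 6 reads in WT. SOX18, an endothelial transcription factor named after its values were seen, had 11 reads in WT, 27 in P1048R, 25 in T1202K and 20 in C1233W. Its log2 ratio in P1048R was 0.90 (-0.12 to 2.10), and on total counts it passed, at 1.13 in P1048R and 1.05 in T1202K.

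Likeness of pattern was measured as the Euclidean distance between log2(CPM + 0.5) profiles over the 4 libraries, centred on their means. Among all genes tested, ETV5 was the nearest to ETV4, at a distance of 0.119, and ETV4 was next to nearest to ETV5, after the pseudogene PYY2 at 0.117. ETV5 also lay near LINC01197, at 0.121, and ETV4 near CSTF3-DT and ASB5, at 0.135 and 0.160, which had 0 reads in WT. ETV1 lay at 0.751 from ETV4 and 0.727 from ETV5. Its nearest genes were MMRN2, ANKHD1-EIF4EBP3 and NPY1R, at 0.0515, 0.0550 and 0.0695. In WT, P1048R, T1202K and C1233W, MMRN2 had 5, 4, 5 and 13 reads and PYY2 had 2, 6, 6 and 17. CSTF3-DT had 0, 1, 1 and 11 reads and ASB5 had 0, 2, 1 and 12. The ranks of MMRN2, PYY2, CSTF3-DT and ASB5 thus rest on few reads. Each of them reached 1 CPM in C1233W alone, so a profile highest in C1233W was set by the filter.

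ETV2 had no neighbour as near. The profiles were not scaled, so distances can grow with the range of a gene and its counting error. The range of ETV2 was the widest of the 10 genes, so its larger distances do not show a more singular pattern. CEBPB-AS1, an antisense RNA whose reads cannot be told apart from those of its partner where the strand setting is unknown, was at 0.302. Its level was 1.71 CPM in WT, 12.3 in P1048R, 5.92 in T1202K and 5.22 in C1233W. The unprocessed pseudogene AL353743.4, of uncertain counts, was at 0.442. GABBR2, a GABA-B receptor subunit, was at 0.467, with 3.21, 16.5, 10.8 and 9.87 CPM in the same order.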

How the data were processed

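The authors deposited raw counts of reads for each gene and library. Per the submitters' processing notes, Trim Galore, HISAT2 and featureCounts were used with hg38. Libraries came from a stranded kit, per the labels' protocols. Tool versions, the strand setting and how multiply mapped reads were counted were not stated in those notes. All 58735 identifiers matched GENCODE release 29 (GRCh38), which gave coordinates, merged exon lengths and GC content of the longest transcript.

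CPM used library sizes multiplied by TMM factors (edgeR 4.0.16, R 4.3.3). RPKM was computed here as CPM per kilobase of merged exons. Ratios were taken after adding 0.5 to each count, over the 16262 genes that reached 1 CPM in any library. No p-value was made, since each construct had 1 library. The size rule was run on simulated counts that held counting error only, as its intervals assume. That run cannot show how the rule fares with variation between cultures.

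The members and gene lists were chosen with earlier results of these data known, and 1 marker of the cell line is not reported here. Text names all 10 members, other ETS genes that passed in any pair and the 3 highest of the rest, up to 4 genes per list that passed against WT, the partners GABPB1, SRF, CIC and COP1, the 3 genes nearest to each member that passed, and genes beside ETV2 or overlapping a member. Genes such as DUSP5, DUSP6, FOSL1, CCND1, SPRY2, SPRED2, TFAM, POLRMT, TFB1M, SURF1, SOX18, FLT1 and FLT4 were named after their values were seen. Alternatives were total counts, DESeq2 1.42.0 size factors, upper quartile scaling, total counts without PBRM1, no filter, a minimum of 5 CPM, 2 added reads, and a GC and length trend removed.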

Additional observations from a re-analysis of the deposited data

How the results depend on the processing

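Of 480 log2 ratios of the 10 ETS genes under the 8 alternatives, 2 changed their call, both of ETV1 and given with its values, and no called ratio changed sign. The settings without a filter and with a minimum of 5 CPM alter only which genes are tested. The ratios of the 10 genes under these settings could not change, so they add no check. The counts of ETS genes passing in the 6 pairs stayed within 1.5 times of those given. The counts of all genes passing did not: with a minimum of 5 CPM, which tested 12193 genes, they were 603 in P1048R, 359 in T1202K and 330 in C1233W against WT, 17 in T1202K and 201 in C1233W against P1048R, and 124 in C1233W against T1202K, instead of 1219, 838, 878, 201, 738 and 575. Total counts moved the all-gene median to 0.19, 0.17 and 0.13 in P1048R, T1202K and C1233W against WT, and upper quartile scaling to -0.16, -0.16 and -0.08. The split of higher and lower genes, 728 and 491 in P1048R, 479 and 359 in T1202K and 681 and 197 in C1233W, became 1253 and 231, 806 and 221, and 943 and 125 on total counts. Without PBRM1 in the totals it was 1204 and 245, 793 and 229, and 1121 and 94. On upper quartile scaling it was 528 and 721 in P1048R and 326 and 589 in T1202K. That minimum also drops SPRY4 and SHC3, leaving 0 feedback genes passing in C1233W against WT. Depth limits ETV2 most, with 3 reads in WT, and the low feedback and endothelial genes. No paired analysis was possible because each construct has 1 library.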

Other observations

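None of the 22 genes listed from FGF and EGF receptors to ERK passed the 2-fold rule in any of the 6 pairs, beside 1.24% to 7.5% of all genes, with single ratios from -0.67 to 0.75. The median log2 ratio to WT was 0.08 in P1048R, 0.16 in T1202K and 0.14 in C1233W, and on upper quartile scaling -0.03, 0.01 and 0.08. MAPK3 (ERK1), named after its values were seen, was at 54.7 CPM in WT, 83.9 in P1048R, 86.2 in T1202K and 63.6 in C1233W.

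Of 18 protein partners and regulators of ETS factors, 17 were measured and none passed in any pair, beside the same shares of all genes. HCFC1, a host cell factor that binds GABP, came closest and was also named after its values were seen. It was at 247 CPM in WT, 147 in P1048R, 177 in T1202K and 130 in C1233W, with a log2 ratio to WT of -0.93 in C1233W (-1.03 to -0.83). With the GC and length trend removed, that ratio was -1.12 and passed.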
